A study of Mus musculus with 10 samples.

Results

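The 9 genes described here belong to the tumour necrosis factor (TNF) superfamily and its receptors: the ligands Tnf, Tnfsf9, Tnfsf10, Tnfsf13b and Tnfsf14, and the receptors Fas, Tnfrsf1a, Tnfrsf1b and Tnfrsf10b. They were chosen by gene symbol, matched through the GENCODE M21 annotation, which gave 9 of the 55385 mouse gene identifiers in the deposited count table. Messenger RNA was measured by bulk sequencing of Tomato+ neutrophils isolated from grafted mouse squamous cell carcinomas (SCC). All hosts were CatchupIVM-red mice, in which the neutrophil gene locus Ly6g drives a red Tomato reporter, so the sorted population follows the activity of that locus. The study asked whether high Sox2, a stem cell transcription factor, in the tumour cells dampens the interferon response of neutrophils.

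The 4 groups were neutrophils of parental Sox2low control grafts left naive (n = 3), of control grafts after treatment with anti-PDL1/CD40 agonist (n = 2), of Sox2Hi SCC grafts left naive (n = 3) and of treated Sox2Hi grafts (n = 2). Anti-PDL1 is an antibody that releases T cells from a checkpoint signal, and a CD40 agonist activates CD40, itself a receptor of the TNF receptor superfamily. The library descriptions carry the label C57, and those of the control graft also GFP, against Sox2 for the Sox2Hi graft; what these add on strain or reporter is not explained there. The age of the mice and the number of mice behind a library are not given in the sources used here. The labels do not say that replicates came from separate animals, so p-values measure only the spread between these libraries. Each group held at least 1 library with at most 8 reads of Ddx3y, a gene of the Y chromosome, and at least 1 with 1007 or more, so no group came from 1 animal alone. Sox2 was changed in the tumour cells and not in the sorted cells, and its few reads did not follow the graft labels. They numbered 31 to 43 in naive control libraries (1.75 to 2.18 CPM, counts scaled to a common total) and 15 to 26 in naive Sox2Hi ones (0.734 to 1.28 CPM), and 3 to 12 (0.223 to 0.720 CPM) and 16 (0.967 to 1.03 CPM) in the treated libraries. The graft names are therefore those of the labels.

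Ligands of this superfamily are trimeric proteins, most of them made on the cell surface and several released by proteases such as Adam17. Some of their receptors, among them Fas, Tnfrsf1a and Tnfrsf10b, carry a cytoplasmic death domain that can recruit caspase 8 and start apoptosis, while others, such as Tnfrsf1b, signal through TRAF adaptors to NF-kB. Neutrophils are short-lived cells whose survival is shaped by these pathways, and they are also a known source of TNF, of the B cell survival factor encoded by Tnfsf13b and of the apoptosis ligand encoded by Tnfsf10.

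Total gene counts ran from 13815734 to 22986193 per library. Levels are given as CPM, a gene's count scaled to a common library total and then by trimmed-mean (TMM) factors. These came from the 11274 genes averaging 5 CPM or more. Reads of 20 neutrophil marker genes were counted: 20 of 20 had reads in every library of 3 groups, and Elane was at 0 in 1 treated Sox2Hi library. Genes taken as silent, given below, carried reads too, so the presence of reads alone does not test the neutrophil label. The summed level of the 20 markers was 12800 to 21000 CPM in control naive, 42500 to 45400 in control treated, 12500 to 18300 in Sox2Hi naive and 21900 to 22000 in Sox2Hi treated libraries. Of 18 tested markers, 17 rose with treatment in control grafts and 10 in Sox2Hi grafts. Ly6g itself was low, at 1.62 to 3.26 CPM in naive and 5.45 to 18.3 CPM in treated libraries. Keratinocyte and tumour epithelium markers (10 genes, all with reads in every library) summed to 2110 to 4220 CPM in control naive, 1250 to 2070 in control treated, 3580 to 4780 in Sox2Hi naive and 2100 to 2940 in Sox2Hi treated libraries. Reads over 1464 olfactory and vomeronasal receptor genes, taken as silent, made up 0.270% to 0.278% of counts in control treated libraries and 0.488% to 1.10% in the others. The median over these genes, used below as a background rate, was 0.167 to 0.187 CPM per kilobase of exon in control treated and 0.235 to 0.577 in the other libraries. In bulk libraries, fewer cells of a type and less RNA per cell cannot be told apart.

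The sequences upstream of the start were read for the members in RefSeq's promoter windows of GRCm38.p6, which matched 7 of the 9 genes. Those of Tnf, Fas, Tnfsf14 and Tnfsf10 are printed, 5′ to 3′ on the gene's own strand, since these genes carry the results below and differ in the motifs found. Windows were searched on both strands for the TATA box (TATAAA), the AP-1 motif (TGANTCA), the interferon gamma activated site or GAS (TTCNNNGAA), an interferon response core (TTTCNNTTT) and the kappa B consensus. Capitals mark each match, and the windows end at the base before the RefSeq start, except that the 20 bases nearest it were left out for Tnfsf10, whose GENCODE start (27317028) lies inside the window. Distances are counted from the RefSeq start.
Tnf, chr17:35202008-35202257, minus strand: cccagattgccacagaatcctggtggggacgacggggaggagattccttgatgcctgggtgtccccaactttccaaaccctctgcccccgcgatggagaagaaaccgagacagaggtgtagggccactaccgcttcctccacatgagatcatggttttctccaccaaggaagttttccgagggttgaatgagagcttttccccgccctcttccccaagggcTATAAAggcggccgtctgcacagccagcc
Fas, chr19:34290409-34290658, plus strand: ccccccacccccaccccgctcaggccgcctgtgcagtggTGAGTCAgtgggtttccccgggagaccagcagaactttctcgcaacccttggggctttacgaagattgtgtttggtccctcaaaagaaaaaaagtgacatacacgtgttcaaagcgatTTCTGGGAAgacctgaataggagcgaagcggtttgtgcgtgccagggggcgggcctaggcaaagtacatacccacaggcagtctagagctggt
Tnfsf14, chr17:57194182-57194431, minus strand: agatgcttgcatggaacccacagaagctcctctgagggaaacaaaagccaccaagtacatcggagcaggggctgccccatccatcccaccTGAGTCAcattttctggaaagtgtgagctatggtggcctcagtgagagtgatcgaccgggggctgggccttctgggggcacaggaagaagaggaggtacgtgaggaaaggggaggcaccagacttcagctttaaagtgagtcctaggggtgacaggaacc
Tnfsf10, chr3:27316827-27317056, plus strand: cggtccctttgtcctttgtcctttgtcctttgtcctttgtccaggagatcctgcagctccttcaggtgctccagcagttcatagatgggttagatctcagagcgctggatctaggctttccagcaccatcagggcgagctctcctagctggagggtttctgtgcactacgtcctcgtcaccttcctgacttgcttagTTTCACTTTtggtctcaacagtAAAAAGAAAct

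The Tnf window held a TATA box 29 to 24 bases before the start and none of the other motifs. The Fas window held an AP-1 motif 211 to 205 bases and a GAS 93 to 85 bases before the start, and the Tnfsf14 window held an AP-1 motif 160 to 154 bases before it. The Tnfsf10 window held the interferon response core at 53 to 45 bases and, on the other strand, at 31 to 23 bases before the RefSeq start, the first spanning the GENCODE start and the second lying after it. Windows not printed also held matches. Window 2 of Tnfsf13b held the interferon response core at 21 to 13 and 15 to 7 bases and an AP-1 motif at 127 to 121 bases. The Tnfrsf1b window held that core at 10 to 2 and a GAS at 181 to 173 bases. The Tnfrsf1a window held a GAS at 244 to 236 bases. Over the 32851 windows of the table, TATAAA was found in 12.4%, TGANTCA in 6.75%, TTCNNNGAA in 7.02%, TTTCNNTTT in 9.37% and the kappa B consensus in 7.25%. No member window held the kappa B consensus, which says only that those letters are not in these windows. A match is a stretch of letters and not a measured site.

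Levels of the members, compared per kilobase of exon, spanned a wide range, with Tnfsf9, Fas and Tnf at the top in every group and Tnfsf10 at the bottom. In naive control grafts Tnfsf9 averaged 65.0 ± 13.5 CPM per kb (SD, n = 3) and Fas 55.7 ± 11.5, with overlapping libraries, above Tnf at 36.8 ± 8.36. Tnfsf14 (14.2 ± 3.58), Tnfrsf1a (11.7 ± 3.24) and Tnfrsf1b (10.8 ± 2.09) formed a middle range in which neighbours overlapped. Tnfrsf10b (3.34 ± 0.394) and Tnfsf13b (2.41 ± 0.689) overlapped each other, and Tnfsf10 (0.885 ± 0.200) was lowest. In treated control grafts Fas stood first, at 272 ± 1.17 CPM per kb (SD, n = 2), above Tnf at 129 ± 21.4, whose libraries overlapped those of Tnfsf9 at 107 ± 53.4. Treated Sox2Hi grafts also had Fas first, at 151 ± 48.3 CPM per kb, followed by Tnfsf9 at 53.5 ± 9.77 and Tnf at 42.0 ± 5.68, with no overlap between these neighbours.

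**Figure D1:**
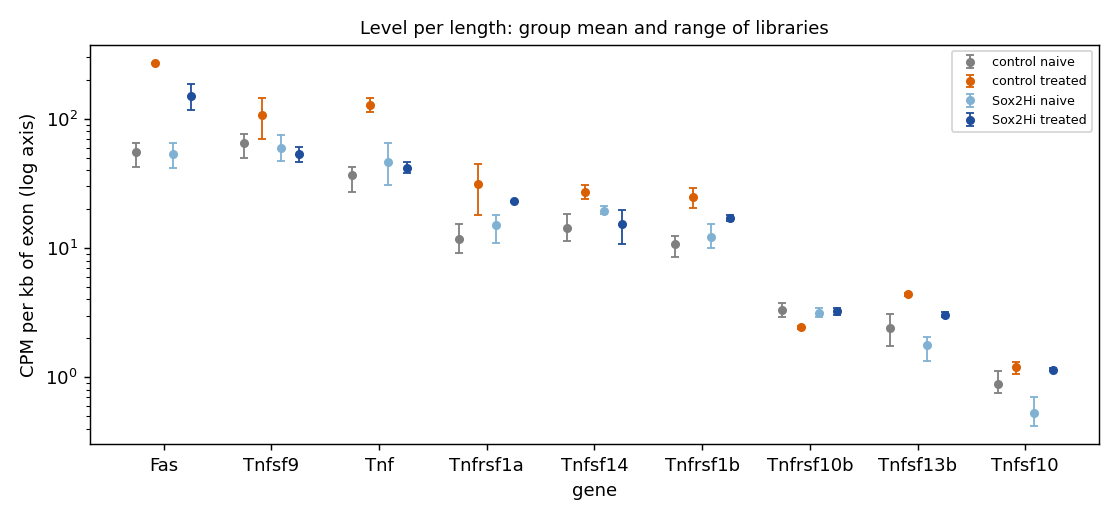
Level of each member in CPM per kilobase of exon (log axis) in the 4 groups; points are group means and bars run from the lowest to the highest library (n = 3 naive, n = 2 treated). Fas reached 272 in control treated and 151 in Sox2Hi treated libraries, against 55.7 and 53.7 in the naive ones, while Tnfsf10 lay lowest throughout.

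Treatment raised 6 of the 8 tested members in control grafts and lowered 1, Tnfrsf10b, against 2 of 8 raised in Sox2Hi grafts (Fas and Tnfsf13b). Over all 11274 genes, edgeR called 56.5% in control grafts (28.7% higher and 27.8% lower) and, in Sox2Hi grafts, 11.8% as higher and 8.23% as lower, so the 7 of 8 members in control grafts stand beside a background in which most genes were called. The median log2 fold change of the 8 members was 1.07 in control and 0.27 in Sox2Hi grafts, beside -0.05 and 0.03 over all genes tested and 0.67 and 0.11 over the 1481 genes averaging 100 CPM or more. The TMM factors came from all genes tested, which tends to hold the median over those genes near 0. These factors were 0.710 and 0.725 in control treated and 0.873 to 1.22 in the other libraries. The 8 are the members averaging 5 CPM or more, and Tnfsf10, at 4.69 CPM, was tested in a fit of 29648 genes. The 2 treatment comparisons share no library, but each shares its libraries with a graft comparison and with the interaction.

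**Figure D2:**
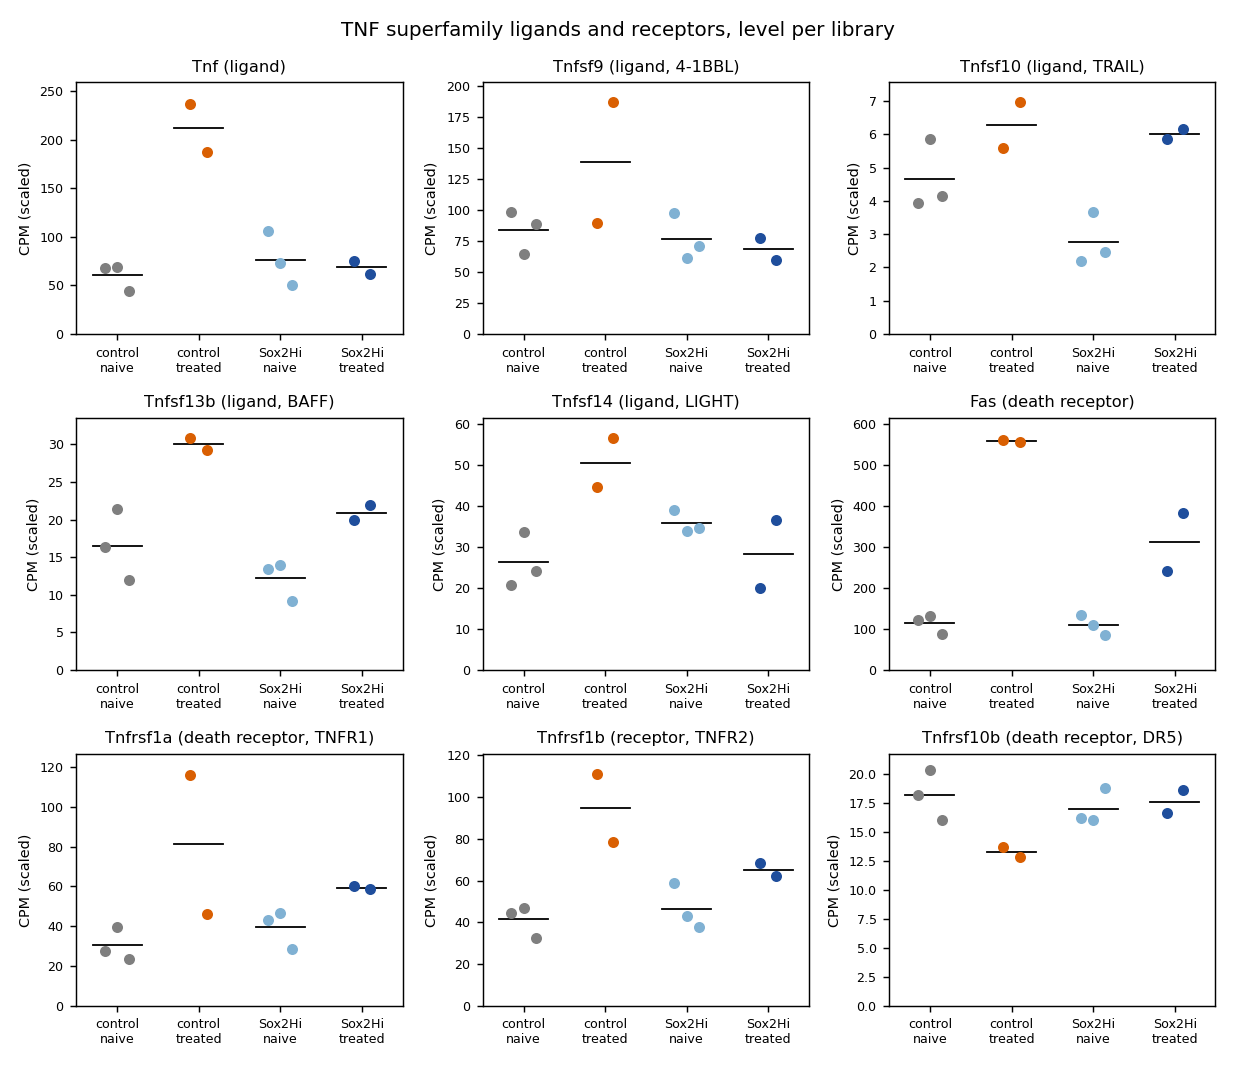
CPM of each member (scaled, linear axis from 0) in every library, 1 point per library with a line at the group mean. Tnf stood at 187 and 237 CPM in the control treated libraries and at 44.6 to 106 in the other 8, whereas Fas was higher in the treated libraries of both grafts.

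Tnf, the founding ligand of the family and an inducer of inflammation, rose with treatment in control grafts and not in Sox2Hi grafts. Its level was 67.5, 69.0 and 44.6 CPM in control naive replicates 1 to 3 and 237 and 187 CPM in control treated replicates 1 and 2. In Sox2Hi grafts it was 106, 72.8 and 50.3 CPM in naive and 75.5 and 62.3 CPM in treated replicates. Both control treated libraries lay above each of the other 8 libraries, and the naive and treated Sox2Hi libraries overlapped. Tnf (ENSMUSG00000024401) lies on chromosome 17, 35199381 to 35202007 in GRCm38, on the minus strand. The log2 fold change was 1.81 (SE 0.29, adjusted p = 0.00065, edgeR quasi-likelihood test), a 3.51-fold rise, in control grafts, and -0.15 (SE 0.29, adjusted p = 0.73) in Sox2Hi grafts. The interaction, the Sox2Hi response minus the control response, was -1.96 (SE 0.42, adjusted p = 0.0081). It was called in all 22 alternative fits run, with values from -2.58 to -1.03 and adjusted p from 6.8e-05 to 0.045.

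Between the grafts, Tnf did not pass the test in naive tumours (0.34, SE 0.26, adjusted p = 0.45) and was 3.08-fold lower in treated Sox2Hi than in treated control tumours (-1.62, SE 0.33, adjusted p = 0.014). Leaving out Sox2Hi treated replicate 1 or 2 ended this call, with adjusted p up to 0.068 and values from -1.77 to -1.41 over the 10 fits that leave out a library. Without control treated replicate 2 it still passed, at an adjusted p just under 0.05. With counts scaled to the neutrophil marker sum it was -0.61 (adjusted p = 0.065; the range over its alternatives was 3.4e-05 to 0.068).

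Tnfsf9, the ligand of the costimulatory receptor Tnfrsf9 of T cells, did not pass the test in any comparison of the edgeR fit described above, and 1 library set its mean in treated control grafts. It stood at 98.5, 64.5 and 88.5 CPM in control naive, 89.8 and 187 in control treated, 97.5, 61 and 70.9 for Sox2Hi naive, and 77.9 and 60.1 CPM in Sox2Hi treated replicates. Control treated replicate 2 was the highest of the 10, and replicate 1 lay within the naive range. Its fold change with treatment in control grafts was 0.73 (SE 0.31, adjusted p = 0.064). It came to -0.04 with control treated replicate 2 left out, and to 1.11, which passed, with replicate 1 left out (adjusted p = 0.013; over all alternatives 0.0072 to 0.92). In treated tumours the Sox2Hi level was 2.01-fold lower (-1.01, SE 0.34), which missed the threshold with an adjusted p of 0.058 and passed without control treated replicate 1 (-1.41, adjusted p = 0.038; over all alternatives 0.011 to 0.96). Other settings also called it. Treatment in control grafts passed with all-gene scaling (1.16), all genes with a count (0.73), DESeq2 (0.76) and the description number as a block (0.85), and the treated-tumour difference with these 4 and RLE factors (-1.37 to -1.01). The interaction passed in 3 of 22 alternatives: with all-gene scaling (-1.51, adjusted p = 0.038), with the description block (-1.21, adjusted p = 0.020; over all alternatives 0.020 to 0.94) and without control treated replicate 1 (-1.27). Its call thus depended on the setting. Tnfsf9 lies on chromosome 17 (57105325 to 57107757, plus strand), 81.7 kb from Tnfsf14, and overlaps the antisense gene Gm11110, which had at most 117 reads. Whether counting used strand is not given in the sources used here, so reads of the 2 genes cannot be told apart.

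Tnfsf14, which encodes LIGHT, a ligand of the receptors Tnfrsf14 and Ltbr, rose with treatment in control grafts and did not pass the test in Sox2Hi grafts. It measured 20.8, 33.6 and 24.2 CPM in control naive, against 44.5 and 56.6 CPM in treated control replicates, with no overlap. In Sox2Hi grafts it measured 39.0, 33.9 and 34.5 CPM in naive and 19.9 and 36.5 CPM in treated replicates, and these overlapped because treated replicate 2 lay within the naive range. It rose 1.93-fold in control grafts (0.95, SE 0.26, adjusted p = 0.010) and gave -0.34 (SE 0.27, adjusted p = 0.35) in Sox2Hi grafts. The control rise was lost without control naive replicate 1 or 3 or control treated replicate 2 (0.62 to 0.77) and with library totals (0.31, adjusted p = 0.27). Scaled to the neutrophil marker sum it turned sign, to -0.44, and was not called (adjusted p over all alternatives 0.002 to 0.27). The interaction was -1.30 (SE 0.38, adjusted p = 0.032). This call was kept in 11 of 22 alternatives (values from -1.94 to -0.42, adjusted p from 0.0062 to 0.49). These were 8 of 12 other settings and 3 of 10 fits that leave out a library, so the call depends on the setting and on single libraries. It was lost without any one of 7 libraries: control naive replicates 1 and 3, control treated replicate 2, the 3 Sox2Hi naive replicates and Sox2Hi treated replicate 1. In naive tumours all 3 Sox2Hi libraries lay above the control ones by a narrow gap, 33.9 against 33.6 CPM, and the difference of 0.45 (SE 0.24) had an adjusted p of 0.25.

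Tnfsf13b, the gene for the B cell survival factor BAFF, was higher in the treated libraries of both grafts. It read 16.3, 21.4 and 11.9 CPM in control naive, 30.8 and 29.3 in control treated, 13.4, 13.9 and 9.20 in Sox2Hi naive, against 19.9 and 21.9 CPM in treated Sox2Hi replicates. Treated and naive libraries did not overlap in either graft. It rose 1.82-fold in control (0.86, SE 0.24, adjusted p = 0.012) and 1.71-fold in Sox2Hi grafts (0.78, SE 0.25, adjusted p = 0.048), and the interaction was -0.09 (SE 0.35, adjusted p = 0.87). The Sox2Hi call was near the threshold and was kept in 8 of 23 alternatives, and leaving out any library but control naive replicates 2 and 3 and Sox2Hi naive replicate 2 ended it (adjusted p up to 0.23). The control call was lost without control naive replicate 1 or 3 or control treated replicate 1 or 2, with adjusted p up to 0.070, and with library totals (0.23, adjusted p = 0.40). Scaled to the neutrophil marker sum, Tnfsf13b fell in control grafts (-0.50, adjusted p = 0.045; over all alternatives 0.00067 to 0.40).

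Tnfsf10, which encodes the apoptosis-inducing ligand TRAIL, was the least abundant member, with 45 to 116 reads per library. The median rate over silent genes times its exon length came to 48.9% of its reads in the control graft when naive and 14.6% when treated, and to 47.9% and 31.6% in the Sox2Hi graft, so this share was lower in the treated libraries of both grafts. Its part in the changes of Tnfsf10 was not tested. It measured 3.95, 5.87 and 4.16 CPM in control naive, 5.58 and 6.96 in control treated, 2.2, 3.68 and 2.46 in Sox2Hi naive, against 5.86 and 6.15 CPM in treated Sox2Hi replicates. Treated Sox2Hi libraries lay above the naive ones, while those of control grafts overlapped. Which graft's rise passed the test depended on the scaling. With factors from all 29648 genes, the rise was called in control (0.88, SE 0.25, adjusted p = 0.019) and not in Sox2Hi grafts (0.91, SE 0.25, adjusted p = 0.067). In that fit 18.7% and 1.79% of genes were called higher in these 2 comparisons. With factors from expressed genes the values were 0.44 (SE 0.26, adjusted p = 0.17) in control and 1.11 (SE 0.26, adjusted p = 0.034) in Sox2Hi grafts. The control call was also lost without control naive replicate 1 or control treated replicate 2, and the Sox2Hi one was gained without control naive replicate 2. Adjusted p ranged over its alternatives from 0.013 to 0.24 in control and from 0.026 to 0.36 in Sox2Hi grafts.

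Fas, the receptor of Fas ligand and a prototype of the death receptors, showed the largest rise with treatment among the 8 tested members in both grafts. It measured 123, 133 and 88.0 CPM in control naive, against 562 and 558 CPM in treated control replicates. In Sox2Hi grafts it measured 135, 111 and 85.7 CPM in naive and 242 and 383 CPM in treated replicates. The 4 treated libraries lay above all 6 naive ones, and both treated control libraries lay above both treated Sox2Hi ones. Fas (ENSMUSG00000024778, chromosome 19, 34290666 to 34327772, plus strand) rose 4.88-fold in control grafts (2.29, SE 0.25, adjusted p = 0.0001) and 2.82-fold in Sox2Hi grafts (1.49, SE 0.25, adjusted p = 0.0053).

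The control rise of Fas was called in 23 of 23 alternatives (0.91 to 2.72), and the Sox2Hi rise in 22 of 23 (1.02 to 1.79). The exception left out Sox2Hi treated replicate 2, the higher of the pair, and gave 1.12 (adjusted p = 0.071; over all alternatives 4.1e-06 to 0.071). Neither the difference between the grafts in treated tumours (-0.84, SE 0.28, adjusted p = 0.051) nor the interaction (-0.79, SE 0.35, adjusted p = 0.13) passed the test. Both passed with the title number as a replicate block (-0.86, SE 0.20, adjusted p = 0.016, and -0.81, SE 0.26, adjusted p = 0.044; over all alternatives of the interaction 0.011 to 0.80), a number with which the naive and control treated libraries deviated together and the Sox2Hi treated ones did not. All-gene scaling also called the interaction (-1.42, adjusted p = 0.011), and scaling to the neutrophil marker sum turned its sign (0.11, adjusted p = 0.80). Whether the smaller Sox2Hi rise differs from the control one thus depended on the block and on the scaling. The treated-tumour difference also passed with all-gene scaling (-1.18, adjusted p = 0.015), the Ddx3y covariate (-0.88, adjusted p = 0.034) and DESeq2 (-0.90, adjusted p = 0.016). It passed too without control naive replicate 2 or Sox2Hi treated replicate 2 (adjusted p = 0.047 at the lowest; over all alternatives 0.015 to 0.56). In naive tumours the graft difference was -0.05 (SE 0.22, adjusted p = 0.92).

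Tnfrsf1a encodes the death domain receptor of TNF, and Tnfrsf1b encodes its other receptor, which lacks a death domain and is prominent on immune cells. Tnfrsf1a read 27.8, 39.8 and 23.7 CPM in control naive, 116 and 46.3 in control treated, 43.1, 46.8 and 28.4 in Sox2Hi naive, against 60.4 and 58.5 CPM in treated Sox2Hi replicates. Tnfrsf1b read 44.7, 47.1 and 32.3 CPM in control naive, 111 and 78.5 in control treated, 58.8, 42.9 and 37.9 in Sox2Hi naive, against 68.2 and 62.2 CPM in treated Sox2Hi replicates. For both receptors the treated libraries lay above the naive ones of the same graft, and control treated replicate 1 was the highest of the 10 libraries. Tnfrsf1a rose 2.67-fold (1.41, SE 0.35, adjusted p = 0.0061) and Tnfrsf1b 2.29-fold (1.20, SE 0.23, adjusted p = 0.0017) in control grafts. Without control treated replicate 1, the Tnfrsf1a value was 0.55 and no longer passed (adjusted p = 0.17; over all alternatives 0.00025 to 0.94), and with library totals it was 0.77 (adjusted p = 0.061). In Sox2Hi grafts the values were 0.59 (SE 0.35, adjusted p = 0.23) for Tnfrsf1a and 0.49 (SE 0.23, adjusted p = 0.14) for Tnfrsf1b, which reached 0.75 (adjusted p = 0.048; over all alternatives 0.048 to 0.98) without Sox2Hi naive replicate 1. The Tnfrsf1a value there was called with the description number as a block (0.86, adjusted p = 0.023; over all alternatives 0.023 to 0.80). The interactions were -0.82 (adjusted p = 0.25) and -0.71 (adjusted p = 0.14), and neither was called. With all-gene scaling both were, at -1.43 for Tnfrsf1a (adjusted p = 0.033; over all alternatives 0.033 to 0.97) and -1.33 for Tnfrsf1b (adjusted p = 0.0090). The title block also called Tnfrsf1b (-0.68, SE 0.22, adjusted p = 0.046; over all alternatives 0.0090 to 0.63). Scaled to the neutrophil marker sum both turned sign, to 0.09 and 0.20, so these calls depended on the scaling and the block.

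Tnfrsf10b, the mouse death receptor for TRAIL, was the only member called lower with treatment. It measured 18.2, 20.3 and 16.0 CPM in control naive, 13.7 and 12.8 in control treated, 16.2, 16.0 and 18.8 in Sox2Hi naive, against 16.6 and 18.6 CPM in treated Sox2Hi replicates. The 2 control treated libraries were the lowest of the 10. The fall was 1.37-fold in control grafts (-0.45, SE 0.17, adjusted p = 0.038), and the Sox2Hi value was 0.05 (SE 0.16, adjusted p = 0.84). The control call was kept in 11 of 23 alternatives and was lost without control naive replicate 2 or either control treated library, and the fold change ranged from -1.85 when scaled to the neutrophil marker sum to -0.03 when scaled on all genes (adjusted p from 0.00026 to 0.92). With the replicate block by title number the control value was -0.46 (adjusted p = 0.051). The interaction of 0.50 (SE 0.23) had an adjusted p of 0.14 and was called in 3 of 22 alternatives: without control naive replicate 3 (0.78, adjusted p = 0.045), with library totals (0.85, adjusted p = 0.036) and with marker scaling (1.37, adjusted p = 0.022; over all alternatives 0.022 to 0.69). The treated-tumour difference was called higher in Sox2Hi grafts in 2 of 23, library totals (0.81, adjusted p = 0.012) and marker scaling (1.41, adjusted p = 0.0039; over all alternatives 0.0039 to 0.83).

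**Figure D3:**
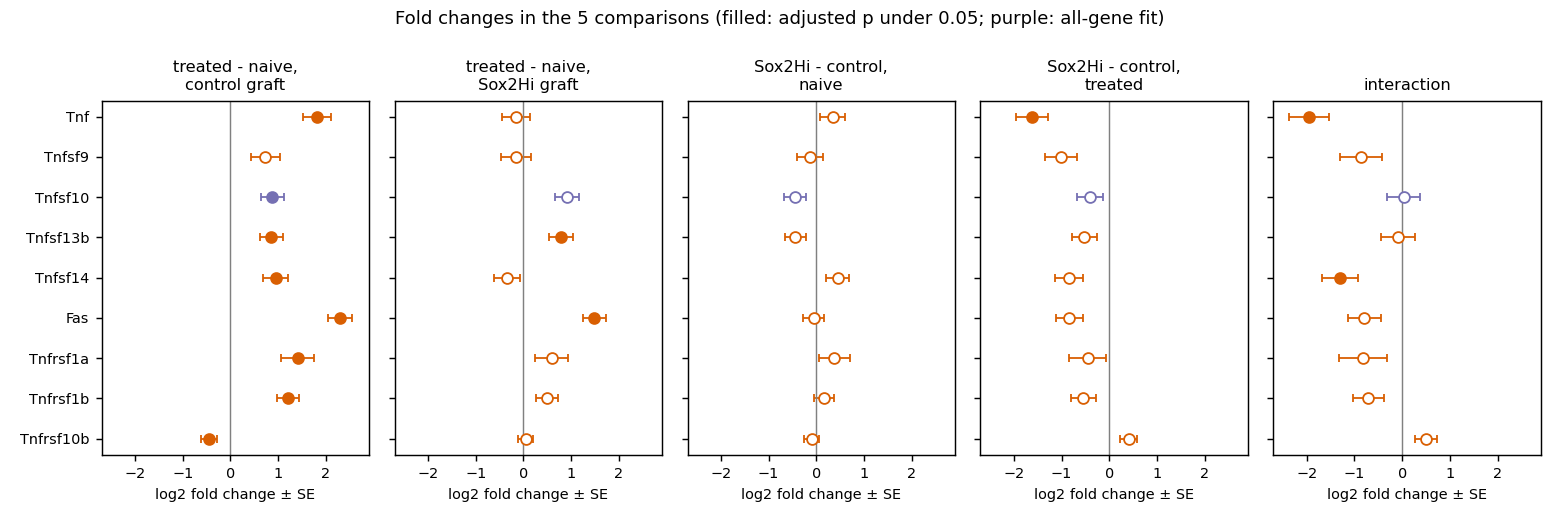
Log2 fold change (point) and standard error (bar) of the 9 members in the 5 comparisons; filled points passed an adjusted p of 0.05, and Tnfsf10 (purple) comes from the fit on all genes. Most points lie right of 0 for treatment in control grafts and left of 0 for Sox2Hi against control in treated tumours, where Tnf at -1.62 is the only filled one.

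Set side by side, the 4 group comparisons separated the members to different extents. Treated libraries lay wholly above naive ones for 6 of 8 members in control grafts (34.1% of all genes did so) and wholly below for 1 (33.2%), and wholly above for 4 of 8 in Sox2Hi grafts (32.5%). In naive tumours no member was called between the grafts by edgeR, at an adjusted p of 0.05 or at an unadjusted p of 0.05. DESeq2 also called no member (16.6% of all genes), while limma-voom called 1, Tnfsf14 (37.0% of all genes). The edgeR background there was 11.8% of genes, and 1 of 8 members (Tnfsf14) had Sox2Hi libraries wholly above control ones (16.9%). In treated tumours 1 of 8 was called, against 21.9% of all genes (10.1% lower), although 6 of 8 had both Sox2Hi libraries below both control libraries (34.1%) and 1, Tnfrsf10b, had them above (28.8%). In the same comparison 7 of 18 tested neutrophil markers were lower (median -0.82), while 4 of 10 keratinocyte and tumour epithelium markers, 2 of 3 mast cell markers and 1 of 6 fibroblast and endothelial markers were higher and 1 of 12 macrophage and dendritic cell markers was lower. Their part in the members' lower levels was not tested. The median fold change of the 8 members there was -0.69, beside -0.07 over all genes and -0.49 over genes of at least 100 CPM. The interaction was called for 2 of 8 members, both negative, against 23.7% of all genes (9.11% negative), and the members' median was -0.81 beside -0.57 over genes of at least 100 CPM. With the title number as a replicate block, 5 of 8 members were called in treated tumours (29.7% of all genes) and 4 of 8 for the interaction (30.4%).

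Scaling on all genes gave more calls: 6 of 8 members were then lower in treated Sox2Hi tumours (9.62% of all genes) and 6 had a negative interaction (16.3%). Those factors also draw on the silent genes, whose reads were scarcest in control treated libraries. The medians over all genes moved from -0.05 to -0.30 for treatment in control grafts and from -0.17 to 0.22 for the interaction.

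Since neutrophil markers rose with treatment, each member was also expressed relative to them. Il1r2 was the largest part of that sum in every library, and its share differed between groups. Of sums of 17200, 21000 and 12800 CPM in naive control libraries, it held 10900, 14200 and 8480 CPM. With treatment it held 15800 of 45400 and 19800 of 42500 CPM, where S100a8 added 10500 and 7600 CPM. In Sox2Hi sums it held 8220 to 11200 of 12500 to 18300 CPM when naive, and 10800 of 21900 and 22000 CPM when treated. The effect of this shift on scaled values was not tested. Tnf stood at 3.94, 3.29 and 3.47 reads per 1000 neutrophil marker reads in control naive, against 5.22 and 4.40 in treated control replicates, and at 5.80, 4.47 and 4.03 in Sox2Hi naive, against 3.45 and 2.84 in treated Sox2Hi ones. On this scale treated libraries lay above naive ones in control grafts and below them in Sox2Hi grafts. Counts scaled to that sum gave Tnf a fold change of 0.43 (SE 0.23, adjusted p = 0.11) in control grafts and -0.60 (SE 0.24, adjusted p = 0.10) in Sox2Hi grafts, and the interaction of -1.03 (SE 0.33, adjusted p = 0.045) was still called.

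Fas kept its rise on this scale: 7.16, 6.35 and 6.85 reads per 1000 marker reads in control naive against 12.4 and 13.1 in control treated replicates, and 7.39, 6.84 and 6.85 in Sox2Hi naive against 11 and 17.4 in Sox2Hi treated ones. Its fold changes were 0.91 (SE 0.22, adjusted p = 0.0034) and 1.02 (SE 0.22, adjusted p = 0.044). For treatment in control grafts the signs of Tnfsf9 (-0.71), Tnfsf13b (-0.50), Tnfsf14 (-0.44) and Tnfrsf1b (-0.19) turned, and Tnfrsf1a came to 0.03. This scaling was added after the data were seen, and the part of neutrophil purity or of marker expression per cell in the members' changes was not tested.

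**Figure D4:**
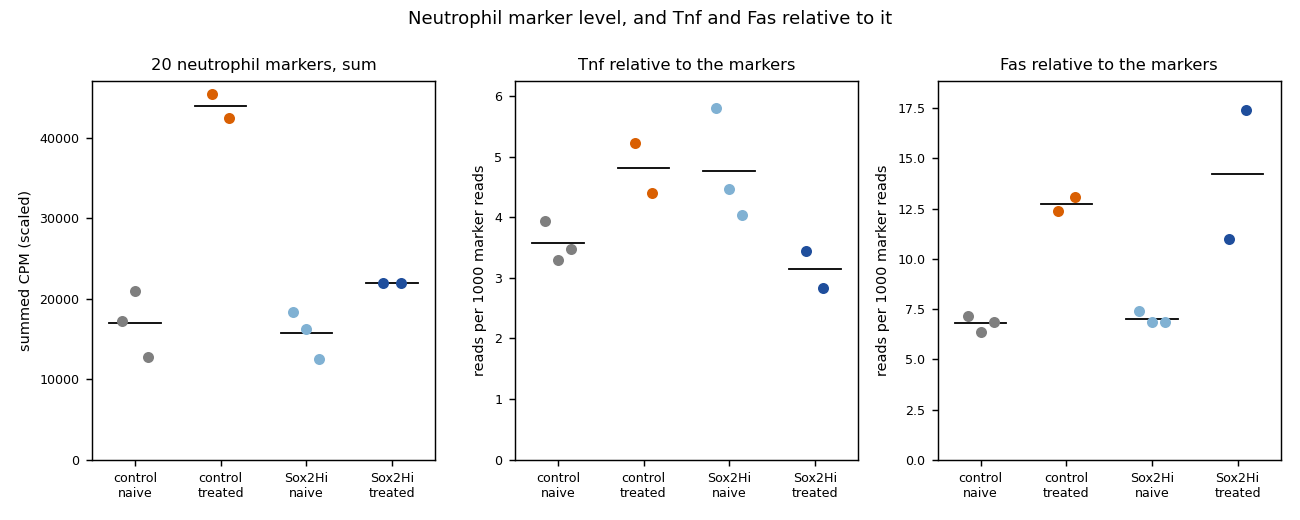
Left, summed CPM of the 20 neutrophil markers per library; middle and right, reads of Tnf and Fas per 1000 reads of those markers, with a line at each group mean. The marker sum was 42500 to 45400 in control treated libraries and at most 22000 in the others, and Fas relative to the markers was higher in the treated libraries of both grafts.

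Markers of other cell types that can express these genes were also measured. T and NK cell markers (12 genes, all with reads in every library) summed to 56.5 to 94.2 CPM in control naive, 142 to 476 in control treated, 41.1 to 144 in Sox2Hi naive and 164 to 276 in Sox2Hi treated libraries, and 5 of 7 tested rose in control and 1 of 7 in Sox2Hi grafts. Macrophage and dendritic cell markers (15 genes, all with reads in every library) summed to 819 to 1250, 1190 to 1810, 1270 to 1740 and 951 to 1780 CPM in the same order, with 2 of 12 tested rising in control and 1 of 12 in Sox2Hi grafts. B and plasma cell markers (6 genes, Mzb1 at 0 in 1 control treated library) summed to 58.7 to 114, 40.7 to 127, 150 to 715 and 26.2 to 114 CPM, and 0 of 4 tested passed for treatment (edgeR). The 715 CPM were those of Sox2Hi naive replicate 2, beside 150 and 169 CPM in replicates 1 and 3. Fibroblast and endothelial markers (9 genes, all with reads in every library) summed to 272 to 714, 104 to 132, 454 to 625 and 120 to 315 CPM, and mast cell markers (6 genes, all with reads) to 35.0 to 220, 9.16 to 26.6, 50.2 to 91.4 and 28.7 to 62.1 CPM. With treatment 5 of 6 and 3 of 3 tested of these 2 lists fell in control grafts, and 3 of 6 and 0 of 3 in Sox2Hi grafts. Their part in the members' changes was not tested.

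The rest of the pathway was described over 5 lists of 74 genes, of which 49 were abundant enough to test. In control grafts 29 of 49 rose and 2 fell with treatment, and in Sox2Hi grafts 18 rose and 2 fell, against backgrounds of 28.7% higher and 27.8% lower, and 11.8% higher and 8.23% lower, of all genes. Between the grafts, 2 were higher and 1 lower in naive Sox2Hi tumours (3.18% and 8.59% of all genes) and 1 was higher and 5 lower in treated ones (11.8% and 10.1%). The interaction was called positive for 1 and negative for 9 of 49 (14.6% and 9.11%). With the title number as a replicate block, 5 of 49 were called in naive tumours (16.8% of all genes), 12 in treated tumours (29.7%) and 18 for the interaction (30.4%).

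**Figure D5:**
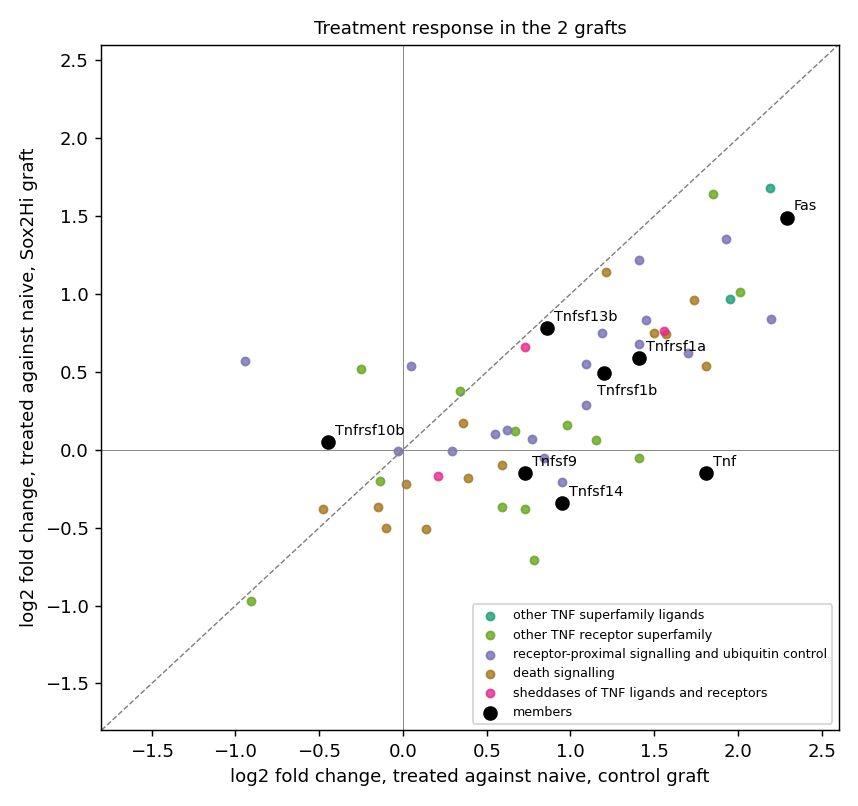
Log2 fold change of treated against naive in control grafts (x axis) and in Sox2Hi grafts (y axis) for the 8 tested members (black, named) and the 49 tested pathway genes (coloured by list); the dashed line marks equal change. Most points lie below the line, with Tnf at 1.81 and -0.15 farthest from it among the members.

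Of 13 other ligands only Fasl and Ltb were abundant enough to test, and both rose in both grafts. Fasl, the ligand of Fas made by cytotoxic lymphocytes, stood at 2.54, 3.39 and 2.34 CPM in control naive, against 6.40 and 18.6 in treated control replicates, a fold change of 2.19 (SE 0.44, adjusted p = 0.0022). In Sox2Hi grafts it stood at 2.10, 4.99 and 2.41 CPM in naive and 10.5 and 9.74 in treated replicates (1.68, SE 0.44, adjusted p = 0.026). Of 7 tested T and NK cell markers, 5 rose in control grafts and 1 in Sox2Hi grafts, and their part in the Fasl rise was not tested. The control call of Fasl was lost without control treated replicate 2 (1.08, adjusted p = 0.064), and the Sox2Hi call without either of its treated libraries or without Sox2Hi naive replicate 1 or 3 (adjusted p up to 0.14). Ltb, the lymphotoxin gene next to Tnf, changed by 1.95 (SE 0.25, adjusted p = 0.00021) in control and 0.97 (SE 0.24, adjusted p = 0.024) in Sox2Hi grafts, the latter lost without Sox2Hi naive replicate 3 or treated replicate 2 (adjusted p up to 0.17). Its interaction of -0.98 (SE 0.35) had an adjusted p of 0.067. This was called in 7 of 22 alternatives (values from -1.61 to -0.07, adjusted p from 0.0058 to 0.86). Among them were the fit without control naive replicate 2 and the replicate block by title number (-0.97, adjusted p = 0.013).

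Among 13 tested of 24 other receptors, 6 rose and 1 fell in control grafts and 1 rose and 1 fell in Sox2Hi grafts. Tnfrsf18, the receptor GITR, had the largest rise in control grafts, from 14.3, 27.4 and 15 CPM in naive to 78.2 and 73.7 in treated replicates (2.01, SE 0.34, adjusted p = 0.00085). Cd40, whose protein the agonist binds, rose most in Sox2Hi grafts, from 10.6, 10.2 and 7.48 to 21.9 and 36.7 CPM (1.64, SE 0.24, adjusted p = 0.0028), and rose by 1.85 (SE 0.24) in control grafts. Tnfrsf12a, the receptor of the ligand TWEAK, fell in both (-0.91 and -0.97, both SE 0.19), and keratinocyte and tumour epithelium markers also fell, 6 of 10 in control and 4 of 10 in Sox2Hi grafts. The part of those cells in this was not tested. Tnfrsf12a and Tnfrsf9 were the 2 receptors higher in naive Sox2Hi tumours, by 0.58 (SE 0.17, adjusted p = 0.047) and 0.67 (SE 0.14, adjusted p = 0.025). In the same comparison 4 of 10 keratinocyte and tumour epithelium markers were higher and 0 lower, while the median over the list was -0.21 (log2). Their part in the Tnfrsf12a and Tnfrsf9 differences was not tested. This Tnfrsf12a call was kept in 7 of 24 alternatives (adjusted p from 0.0026 to 0.35), 6 of 14 among settings that keep all libraries. It was lost without any library but control naive replicate 3. The Tnfrsf9 call was lost without control naive replicate 1 or 2 or any Sox2Hi naive library (adjusted p up to 0.072). The Sox2Hi fall of Tnfrsf12a was lost without Sox2Hi treated replicate 2 (-0.99, adjusted p = 0.10).

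Tnfrsf26, from the same receptor cluster as the TRAIL decoy receptors, was more abundant per length than any of the 9 members, averaging 283 CPM per kb over the 10 libraries against 117 for Fas. It measured 814, 649 and 827 CPM in control naive, 1610 and 1000 in control treated, 1170, 719 and 1110 in Sox2Hi naive, against 576 and 648 CPM in treated Sox2Hi replicates. Control treated replicate 1 was the highest library, and both treated Sox2Hi libraries lay below the naive ones of that graft. It was lower in treated Sox2Hi than treated control tumours (-1.09, SE 0.28, adjusted p = 0.024), which was lost without control treated replicate 1 or either Sox2Hi treated replicate (-0.68 to -1.10, adjusted p up to 0.15).

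The binding partners of the members, picked after their values were known, moved unevenly with them. Tnfrsf9, the receptor of Tnfsf9, stood at 10.1, 11.5 and 11.1 CPM in control naive, 24.7 and 23.8 in control treated, 18.8, 17.5 and 15.8 in Sox2Hi naive, against 19.0 and 17.2 in treated Sox2Hi replicates. The control libraries separated by treatment and the Sox2Hi ones overlapped, giving 1.15 (SE 0.15, adjusted p = 0.00025) against 0.06 (SE 0.15, adjusted p = 0.79). Tnfrsf13b, the BAFF receptor TACI, changed by 0.98 (SE 0.25, adjusted p = 0.0072) in control grafts and 0.16 (SE 0.25, adjusted p = 0.65) in Sox2Hi grafts. Its control call was lost without control treated replicate 2 (0.69). Among naive Sox2Hi libraries it was highest in replicate 2 (10.1, 13.2 and 8.02 CPM), where B and plasma cell markers summed to 715 CPM. Their part in the Tnfrsf13b level was not tested. Tnfrsf14, a receptor of LIGHT, averaged 9.73 ± 2.27 CPM in control naive and 12.3 ± 3.55 in control treated libraries and passed no comparison. Its control value was called in 2 of 23 alternatives with opposite signs, as a rise with all-gene scaling (0.76, adjusted p = 0.040) and as a fall with marker scaling (-1.05, adjusted p = 0.0057; over all alternatives 0.0057 to 0.93). Of the TRAIL decoy receptors, Tnfrsf23 rose in control grafts (1.41, SE 0.21, adjusted p = 0.00047) and gave -0.05 (SE 0.21, adjusted p = 0.88) in Sox2Hi grafts, while Tnfrsf22 gave -0.14 and -0.20 and passed neither comparison. The control value of Tnfrsf22 was called as a fall in 3 of 23 alternatives: without control treated replicate 2 (-0.67, adjusted p = 0.034), with library totals (-0.77, adjusted p = 0.011) and with marker scaling (-1.55, adjusted p = 0.0014; over all alternatives 0.0014 to 0.71).

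Of 18 tested genes of receptor-proximal signalling and ubiquitin control, 13 rose and 1 fell in control grafts and 8 rose in Sox2Hi grafts. Tnip1, a partner of the NF-kB brake Tnfaip3, had the largest control rise, from 13.1, 22.7 and 15 CPM in naive to 90.3 and 65.1 in treated replicates (2.2, SE 0.26, adjusted p = 0.00013). Traf1, an adaptor induced by NF-kB, had the largest Sox2Hi rise (1.35, SE 0.19, adjusted p = 0.0021). Traf5, another adaptor, was the one gene of this list that fell in control grafts, and it read 38.9, 53.6 and 34.1 CPM in control naive, 24.9 and 19.0 in control treated, 27.2, 27.2 and 24.6 in Sox2Hi naive, against 39.5 and 38.6 in treated Sox2Hi replicates. It fell with treatment in control grafts (-0.94, SE 0.21, adjusted p = 0.0034), was lower in naive Sox2Hi tumours (-0.68, SE 0.18, adjusted p = 0.037) and higher in treated ones (0.83, SE 0.22, adjusted p = 0.028). The naive call was kept in 10 of 24 alternatives (-0.9 to -0.37, adjusted p from 0.0023 to 0.18). It was lost without any one of 6 libraries: control naive replicates 1 and 2, all Sox2Hi naive libraries and Sox2Hi treated replicate 1. The treated call was lost without control treated replicate 2 or either Sox2Hi treated library (0.77 to 1.08 over the 10 fits that leave out a library). Tnfaip3 was lower in treated Sox2Hi than treated control tumours (-0.75, SE 0.19, adjusted p = 0.024), at 282 and 268 against 464 and 464 CPM, and this fell short without any one of 6 libraries, namely the 4 treated ones, control naive replicate 1 and Sox2Hi naive replicate 2 (adjusted p up to 0.12).

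Of the 13 death signalling genes, all of them tested, 6 rose in control grafts and 5 rose and 1 fell in Sox2Hi grafts. Cflar, whose protein blocks caspase 8 at death receptors, had the largest control rise, from 122, 120 and 114 to 422 and 412 CPM (1.81, SE 0.16, adjusted p = 4.8e-05). In Sox2Hi grafts Cflar stood at 172, 153 and 133 CPM in naive and 189 and 255 in treated replicates, without overlap. Cflar and Casp8 were the 2 genes of this list lower in treated Sox2Hi than treated control tumours (-0.91, SE 0.18, adjusted p = 0.014, and -0.72, SE 0.18, adjusted p = 0.024). The Cflar difference was lost without control treated replicate 2 or Sox2Hi treated replicate 1 (adjusted p up to 0.098), and the Casp8 one without control treated replicate 1 or any Sox2Hi library (up to 0.16). Among 3 tested sheddase genes, Adam17, which releases TNF from the cell surface, rose in control (1.56, SE 0.19, adjusted p = 0.00016) and Sox2Hi grafts (0.76, SE 0.19, adjusted p = 0.022), and Rhbdf2, a cofactor of Adam17, rose by 0.73 and 0.66 (both SE 0.19). The Sox2Hi call of Adam17 was lost without Sox2Hi naive replicate 3 or treated replicate 2 (adjusted p up to 0.21). The Rhbdf2 calls were lost without control naive replicate 3 or control treated replicate 1 in control grafts, and without control naive replicate 1, Sox2Hi naive replicate 2 or 3 or Sox2Hi treated replicate 2 in Sox2Hi grafts (up to 0.25), the latter also with the replicate block by title number (0.57, adjusted p = 0.060).

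Many of these calls were lost when counts were scaled to the neutrophil marker sum. For treatment in control grafts the values became 0.15 for Adam17 (adjusted p = 0.55), 0.39 for Cflar (0.14), 0.65 for Tnfrsf18 (0.087), 0.45 for Cd40 (0.12) and 0.83 for Fasl (0.11). Those of Tnfrsf9 (-0.27), Tnfrsf13b (-0.41) and Tnfrsf23 (-0.01) turned sign without passing, and Rhbdf2 turned to a called fall (-0.67, adjusted p = 0.020), while Tnip1 was still called (0.81, adjusted p = 0.011). In Sox2Hi grafts the calls of Fasl (1.18), Ltb (0.50), Traf1 (0.86), Adam17 (0.27), Rhbdf2 (0.17) and Tnfrsf12a (-1.52) were lost. Between the grafts those of Tnfrsf9 (0.75), Tnfrsf12a (0.66) and Traf5 (-0.55) in naive tumours, and of Tnfrsf26 (-0.08), Tnfaip3 (0.25), Cflar (0.09) and Casp8 (0.29) in treated ones, were lost too. All-gene scaling ended the Sox2Hi calls of Fasl (1.48), Ltb (0.77), Adam17 (0.56) and Rhbdf2 (0.46), the control fall of Tnfrsf12a (-0.51) and the graft differences of Traf5 (-0.37 and 0.50). Library totals ended the control calls of Tnfrsf13b (0.34) and Rhbdf2 (0.09) and the treated-tumour calls of Tnfrsf26 (-0.69), Tnfaip3 (-0.34) and Casp8 (-0.31).

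The genes whose levels ran most like each member over the 10 libraries were found by Pearson's r of log2(CPM + 1) among 4825 genes averaging 20 CPM or more. The points share depth and scaling, and r is given as a description. For Tnf they were Cd24a (r = 0.981) and Clec4n (0.959), for Fas Lcp2 (0.996) and Cyba (0.995), and for Tnfsf14 Nfkb1 (0.961) and Hspa13 (0.949). For Tnfsf13b they were Ccdc82 (0.979) and the interferon-stimulated gene Ifit1 (0.976), for Tnfsf9 Med21 (0.919) and Wdfy1 (0.914), and for Tnfsf10 Vmn1r13 (0.935), one of the vomeronasal receptors, and Zup1 (0.917). The receptors Tnfrsf1a (Nrros 0.978, Selplg 0.971), Tnfrsf1b (Pira2 0.991, Sirpa 0.990) and Tnfrsf10b (Echs1 0.915, Vps50 0.876) completed the set.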

How the data were processed

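The authors deposited 1 table of estimated counts per gene for the 10 libraries. The submitters' processing notes name kallisto 0.44.0 and mm10, without a role, and the deposited expected counts were already whole numbers. Per the labels, libraries were made with a low-input kit; strandedness is not given in the sources used here. Entries that name no mouse gene (96, at most 0.00277% of a library's counts) were left out. Symbols, coordinates and exon lengths came from GENCODE M21 (GRCm38).

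All 10 libraries entered 1 edgeR 4.0.16 model (R 4.3.3) with the 4 groups as terms, restricted to the 11274 genes averaging 5 CPM or more; TMM factors came from the same genes, and tests were quasi-likelihood F-tests. P-values were Benjamini-Hochberg adjusted over all 11274 genes, and a gene was called under 0.05. The standard error is the fold change over the square root of F, and the biological coefficient of variation was 0.213. Tnfsf10 was tested in the all-gene fit (filterByExpr, 29648 genes). Total counts of 13815734 to 22986193 set the precision of counting.

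The members and lists were chosen with earlier results of these data known. Pathway genes were named by the largest called rise and fall per list and comparison; Ltb, Casp8, Rhbdf2 and the binding partners were named after their values were seen. Replicates differed by more than sampling noise (chi-square per degree of freedom at least 12.5). To see whether title numbers pair libraries, deviations from the group means were correlated. The 3 naive pairs gave r of 0.273, 0.324 and 0.474, so naive libraries of 1 number deviated together, although no label explains the numbers. Ddx3y reads also ran with the numbers in the naive and control treated groups: 4, 6 and 8 for number 1 and 3854, 2814 and 6618 for number 2. In Sox2Hi treated libraries they were 3980 and 7. The part of this in the correlations was not tested. Control treated libraries gave 0.153 to 0.247 with naive libraries of their number, Sox2Hi treated ones -0.280 to 0.087, and the treated pairs -0.096. The background rate is the median over silent genes of reads per kilobase of exon.

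Alternatives were other scalings (all genes, RLE, library totals, silent-gene background subtracted), other filters, replicate blocks, a Ddx3y covariate, groups compared alone, DESeq2 1.42.0, limma-voom (limma 3.58.1) and each library left out. Some genes of the death signalling list are counted but not reported by name here.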

Additional observations from a re-analysis of the deposited data

Results flagged for a closer look

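The treatment response differed between the grafts, by the interaction term of the edgeR fit, for 2 of 8 members and the 9 pathway genes named here. Of the 49 tested pathway genes, 1 was called positive and 9 negative. Over all 11274 genes the interaction was called for 23.7%, 14.6% positive and 9.11% negative. The Sox2Hi response minus the control response was -1.96 (log2) for Tnf and -1.30 for Tnfsf14. Among the receptors it was -1.48 for Tnfrsf26, -1.46 for Tnfrsf23 and -1.09 for Tnfrsf9. In the signalling list it was -1.36 for Tnip1, -1.08 for Tnfaip3 and -0.79 for Sharpin, a subunit of the linear ubiquitin ligase, and among death signalling genes -1.27 for Cflar and -0.83 for Casp8. For Traf5 it was 1.51, the opposite sign to the other 10. Leaving out 1 library in turn kept the call for Tnf, Tnfrsf23, Tnfrsf9, Cflar and Traf5, whose highest adjusted p was 0.039. It ended the call for the other 6. For Sharpin any library but control naive replicate 2 ended it, and for Casp8 7 libraries, all but control naive replicate 2, control treated replicate 2 and Sox2Hi treated replicate 2. For Tnip1 the 7 were control naive replicates 1 and 3, control treated replicate 1 and every Sox2Hi library but naive replicate 3. For Tnfrsf26 they were control treated replicate 1, Sox2Hi naive replicates 1 and 3 and Sox2Hi treated replicate 1, and for Tnfaip3 control treated replicate 2, Sox2Hi naive replicates 1 and 2 and Sox2Hi treated replicate 2. Neutrophil markers also had a smaller rise in Sox2Hi grafts (median interaction -0.98, with 2 of 18 called lower), and their part in these differences was not tested. Scaled to the neutrophil marker sum, the interactions of Tnf (-1.03, adjusted p = 0.045) and Traf5 (2.38, adjusted p = 0.00023) were called, and those of the other 9 genes were not.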

How the results depend on the processing

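The numbers of members called were 7, 2, 0, 1 and 2 of 8 for treatment in control grafts, treatment in Sox2Hi grafts, graft in naive tumours, graft in treated tumours and the interaction, and those of pathway genes 31, 20, 3, 6 and 10 of 49. Percentages below are the share of all genes called in the same fit. With 1 library left out, members called ran from 4 to 7, 0 to 2, 0 to 1, 0 to 3 and 1 to 3, and pathway genes from 25 to 31, 3 to 23, 0 to 6, 0 to 7 and 4 to 13, beside 45.0% to 57.9%, 1.87% to 28.7%, 0.0266% to 17.7%, 1.89% to 27.9% and 11.8% to 25.1% of all genes. The cause of the shifts below was not tested. For treatment in control grafts, 4 members were called with library totals (66.5%) and 3 when scaled to the neutrophil marker sum (81.3%), an alternative chosen after seeing the data. For treatment in Sox2Hi grafts, 1 member was called with all-gene scaling, both wider gene filters, RLE factors, library totals, background subtraction, the Ddx3y covariate and marker scaling (2.16% to 26.9%); pathway genes called were 5 with all-gene scaling (3.61%), 11 with either wider filter (3.14% and 5.02%), 12 with library totals (26.9%) and 1 with marker scaling (2.16%). In naive tumours limma-voom called 1 member (37.0%); pathway genes called were 1 with either wider filter (2.42% and 5.8%) or the Ddx3y covariate (9.22%), 0 with the groups compared alone (0.16%) or marker scaling (0.0355%), 7 with DESeq2 (16.6%) and 18 with limma-voom. In treated tumours, members called were 6 with all-gene scaling (13.8%), 4 with DESeq2 (27.9%) and 2 with all genes (5.47%), RLE factors (20.4%), library totals (26.2%) or the Ddx3y covariate (19.4%); pathway genes called were 19 with all-gene scaling, 3 with background subtraction (8.08%), 1 with the groups alone (7.41%) and 12 with marker scaling (49.9%). For the interaction, members called were 6 with all-gene scaling (27.5%) and 1 with background subtraction (11.6%); pathway genes called were 30 with all-gene scaling, 5 with library totals (19.8%) or background subtraction, 3 with marker scaling (23.5%) and 17 with limma-voom (29.4%). The interaction has no fit with the groups alone.

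With the title number as a replicate block, 5 members were called in treated tumours (29.7%) and 4 for the interaction (30.4%), and pathway genes called were 5 in naive tumours (16.8%; 9 with the naive libraries alone, 22.0%), 12 in treated tumours and 18 for the interaction. The block by description number, which makes the same naive pairs and other treated ones, gave 2 members in treated tumours (16.3%) and turned the Tnfsf13b interaction to 0.01. The block changed no member call in naive tumours.

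Signs turned under marker scaling for treatment in control grafts (Tnfsf9 -0.71, Tnfsf13b -0.50, Tnfsf14 -0.44, Tnfrsf1b -0.19, Tnfrsf9 -0.27, Tnfrsf13b -0.41, Tnfrsf14 -1.05, Tnfrsf23 -0.01, Rhbdf2 -0.67) and Sox2Hi grafts (Tnfrsf10b -0.48, Tnfrsf9 -0.44, Tnfrsf13b -0.33, Tnfrsf14 -0.11), between grafts in naive (Fas 0.05, Tnfrsf10b 0.04) and treated tumours (Tnfsf13b 0.48, Tnfsf14 0.15, Fas 0.16, Tnfrsf1a 0.58, Tnfrsf1b 0.47, Tnfaip3 0.25, Cflar 0.09, Casp8 0.29), and for the interaction (Tnfsf9 0.07, Tnfsf13b 0.79, Fas 0.11, Tnfrsf1a 0.09, Tnfrsf1b 0.20, Sharpin 0.11, Casp8 0.09). All-gene scaling turned Tnfsf9 (0.14), Fas (0.24) and Tnfrsf10b (0.21) in naive tumours, Tnfrsf10b (-0.16), Tnfrsf9 (-0.14) and Tnfrsf13b (-0.03) for treatment in Sox2Hi grafts, Tnfrsf22 (0.30) in control grafts and the Tnfrsf10b interaction (-0.14). Library totals turned the Tnfsf13b interaction (0.27), Tnfrsf10b (-0.24), Tnfrsf9 (-0.21) and Tnfrsf13b (-0.12) in Sox2Hi grafts and Tnfrsf14 (-0.30) in control grafts, and limma-voom turned Tnfrsf23 (0.01) in Sox2Hi grafts.

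Leaving out 1 library gave ranges that cross 0 for treatment in Sox2Hi grafts (Tnf -0.30 to 0.23, Tnfsf9 -0.35 to 0.12, Tnfsf14 -0.86 to 0.03, Tnfrsf10b -0.05 to 0.20, Tnfrsf9 -0.01 to 0.18, Tnfrsf13b -0.06 to 0.43, Tnfrsf14 -0.07 to 0.72, Tnfrsf23 -0.11 to 0.21) and control grafts (Tnfsf9 -0.04 to 1.11, Tnfrsf14 -0.04 to 0.54, Tnfrsf22 -0.67 to 0.12), between grafts in naive (Tnf -0.05 to 0.47, Fas -0.30 to 0.07, Tnfrsf1b -0.11 to 0.27) and treated tumours (Tnfrsf1a -0.84 to 0.40), and for the interaction (Tnfsf10 -0.17 to 0.28, Tnfsf13b -0.31 to 0.30, Tnfrsf1a -1.20 to 0.03). Depth limits Tnfsf10, with 45 to 116 reads. Where an arm is left with 1 library, that library is assumed to vary like the other groups.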

Other observations

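Libraries differed in Ddx3y, a gene of the Y chromosome: 4 libraries had at most 8 reads and 6 had at least 1007. Each of the 4 groups held both kinds. Among libraries without Ddx3y, Tnf was at 67.5 CPM in the control graft when naive and 237 when treated, and at 106 and 62.3 CPM in the Sox2Hi graft. Among those with it, Tnf was at 44.6 to 69.0 and 187 CPM in the control graft and at 50.3 to 72.8 and 75.5 CPM in the Sox2Hi graft. Fas went from 123 to 562 and from 135 to 383 CPM in the libraries without Ddx3y, and from 88.0 to 133 up to 558 and from 85.7 to 111 up to 242 CPM in those with it. The tdTomato reporter sequence had between 135 and 514 reads in every library.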
